A study of Rattus norvegicus with 2 samples.

Results

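The RNA helicases and splicing factors described here were 107 of the 42172 genes listed in the count matrices. They were chosen by symbol alone. Names beginning with Ddx (38 genes) or Dhx (16) were taken, which are mostly RNA helicases. Also taken were names beginning with Srsf (12), Prpf (13), Sf3a or Sf3b (9) or Hnrnp (19), which are splicing factors and nuclear RNA-binding proteins. One further symbol, Hnrnpa1-ps1, was left out as a pseudogene. The study profiled dissociated lung cells of control rats and of rats exposed to a gas explosion by droplet-based single-cell RNA sequencing with 3' chemistry, to see how lung cells vary after a blast. Each group was 1 library, and both came from animals raised specific-pathogen-free whose lung suspensions had red cells lysed and dead cells removed. The number, strain and age of the animals and the time after the explosion are not given in the labels. With 1 library a group no test was possible and no difference has a replicate check. Every interval in parentheses is a 95% interval that covers counting error only.

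Introns are removed from pre-mRNA by the spliceosome, which is built anew on each intron from small nuclear ribonucleoproteins. The SF3A and SF3B proteins belong to the U2 particle that holds the branch point, Prpf proteins sit mainly in the U1, U4/U6 and U5 particles and the catalytic core, and DEAH-box helicases (Dhx) drive several of its rearrangements. SR proteins (Srsf) mostly favour the use of nearby exons, hnRNP proteins bind nascent RNA and often oppose them, and DEAD-box helicases (Ddx) act in splicing, ribosome assembly, translation and the sensing of viral RNA. Mammalian cells of every type use this machinery, and several SR and hnRNP genes limit their own levels through unproductive splicing.

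The 2 libraries differed strongly in depth. The control library held 21117 barcodes with a median of 4917 UMIs (unique molecules) and the explosion library 12642 with a median of 538.5, and the lowest UMI count of a barcode was 500 and 231. After filters 19298 control and 11811 explosion cells remained, 85 barcodes occurred in both libraries, and 33 of 36 clusters drew over 80% of their cells from 1 library. Cell classes are named from marker genes, and a name means that a class resembles the cell type. The 8 classes with at least 200 cells in each library were macrophage-, T-, monocyte-, mesothelial-, B-, secretory-, NK- and ciliated-like, and each of their 29 clusters showed between 5 and 13 markers of its class. Different clusters held most of a class in the 2 libraries: for example control macrophage-like cells were mostly in clusters 0 and 1 and explosion ones in clusters 9 and 14, monocyte-like cells in cluster 8 against clusters 3, 6 and 11, and T-like cells in cluster 5 against cluster 4, whose leading genes included Gata3 and Il1rl1. Secretory-like cells were mostly in clusters 2 and 7 against cluster 16, mesothelial-like cells in 12 against 10, B-like cells in 13 against 15, NK-like cells in 19 against 21, and ciliated-like cells in 17 and 22 against 29 and 22.

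Values are given as CPM, a gene's UMIs scaled to the total UMIs of the class and library, and a ratio is explosion over control. A member counted as measured in a class when its mean CPM over both libraries predicted at least 10 UMIs in the smaller library. A member is called higher or lower when it passed 2-fold. Ratios over all kept cells mix classes whose shares differed between libraries. Macrophage-like cells, for example, were 46.7% of control and 16.2% of explosion cells. The part of these shares in such ratios was not tested. Of the 107 members, 103 were measured over all kept cells; Ddx3y, Ddx4, Ddx43 and Srsf8 were not. Srsf8 had 0 UMIs in either library, which allows up to 0.025 CPM in control and 0.36 CPM in explosion.

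Promoter sequence is shown for members at both ends of the range described next: Prpf38b, Ddx3x and Srsf11, whose ratios were at least 2-fold above that of the median gene in every class, and Sf3b6 and Sf3b5, whose median ratios over classes were lowest. Each run is the 250 bases upstream of the start in RefSeq's annotation, 5′ to 3′ on the strand of the gene, in build GRCr8. Capitals mark matches on either strand to 5 motifs. These were the ETS core, spelled CCGGAAG, the GC box, spelled GGGCGG, the CCAAT box, spelled as named, the cyclic AMP response element, spelled TGACGTCA, and the TATA box, spelled TATAAA. GC box matches can adjoin or overlap matches of other motifs.

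Prpf38b (chr2:199250339-199250588, minus strand): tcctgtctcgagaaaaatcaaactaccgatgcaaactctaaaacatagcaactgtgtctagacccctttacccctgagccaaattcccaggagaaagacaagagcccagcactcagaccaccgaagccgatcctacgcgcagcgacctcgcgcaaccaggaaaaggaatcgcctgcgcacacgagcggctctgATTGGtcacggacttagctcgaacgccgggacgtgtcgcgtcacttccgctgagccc
Ddx3x (chrX:12165984-12166233, minus strand): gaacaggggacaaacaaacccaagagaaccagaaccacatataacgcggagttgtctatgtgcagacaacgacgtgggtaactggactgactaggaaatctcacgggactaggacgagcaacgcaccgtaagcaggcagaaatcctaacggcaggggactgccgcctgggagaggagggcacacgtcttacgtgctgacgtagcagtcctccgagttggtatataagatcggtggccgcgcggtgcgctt
Srsf11 (chr2:249760259-249760508, minus strand): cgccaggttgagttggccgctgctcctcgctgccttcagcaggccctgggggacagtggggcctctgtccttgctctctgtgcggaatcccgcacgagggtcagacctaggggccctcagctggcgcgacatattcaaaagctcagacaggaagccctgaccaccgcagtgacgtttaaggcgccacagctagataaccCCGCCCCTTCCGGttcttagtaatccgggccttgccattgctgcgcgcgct
Sf3b6 (chr6:33545245-33545494, plus strand): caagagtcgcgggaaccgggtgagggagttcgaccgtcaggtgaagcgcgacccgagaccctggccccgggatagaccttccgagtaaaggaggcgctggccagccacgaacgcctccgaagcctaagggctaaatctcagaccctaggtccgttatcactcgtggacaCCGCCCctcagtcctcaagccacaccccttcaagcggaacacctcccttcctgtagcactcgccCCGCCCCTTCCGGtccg
Sf3b5 (chr1:9176939-9177188, plus strand): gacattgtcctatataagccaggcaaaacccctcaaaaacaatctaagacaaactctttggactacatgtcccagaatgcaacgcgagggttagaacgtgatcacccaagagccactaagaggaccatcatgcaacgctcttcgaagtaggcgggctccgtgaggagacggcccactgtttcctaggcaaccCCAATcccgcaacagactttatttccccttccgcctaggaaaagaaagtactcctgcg

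The Prpf38b and Sf3b5 windows each held 1 CCAAT match and the Ddx3x window held none of the 5 motifs. In Srsf11 and Sf3b6, which lay at opposite ends of the range, a GC box and an ETS core stood side by side in the same run of capitals. Promoters of 99 of the 107 members could be matched. An ETS core was found in 28 of these 99 (28.3%) against 7.74% of all 27457 promoters, and a GC box in 56.6% against 32.4%. CCAAT boxes were in 47.5% against 34.3%, and cyclic AMP response elements in 5.05% against 1.70%. A TATA box was less frequent, in 6.06% of member promoters against 13.1% of all. Median GC content of the windows was 58.0% for members and 52.0% for all promoters. A match describes the letters only.

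Summed over all members, the machinery took a larger share of the explosion library. The members together made 6790 CPM of all kept control cells and 15547 CPM of explosion cells, a ratio of 2.29 (2.28 to 2.30). Singly, 69 of the 103 measured members were at least 2-fold higher in explosion and 0 at least 2-fold lower, where 51.6% and 5.98% of all 15025 measured genes were. The median member had a log2 ratio of 1.19 and the median gene 1.04, so most of this shift was shared with other genes. With each library scaled so that the median gene had a ratio of 1, 8 members (7.77%) were at least 2-fold higher and 4 (3.88%) lower, against 20.1% and 21.0% of all genes. In UMIs per cell the sign was opposite: explosion cells held 8.81-fold fewer UMIs of all genes, and of the 103 measured members only Ddx60 had more UMIs per cell than in control.

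**Figure D1:**
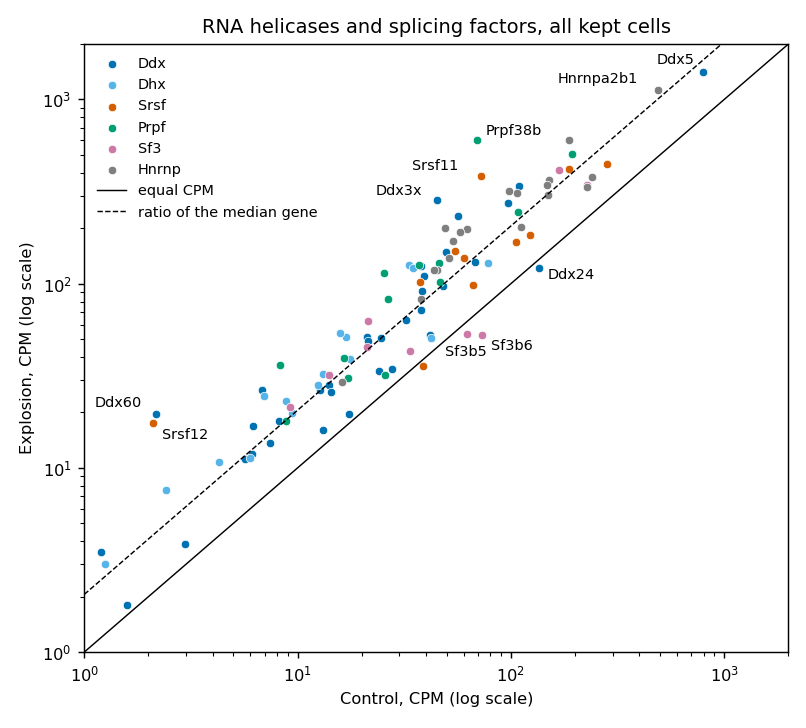
Level of each of the 103 measured members over all kept cells, control CPM (x) against explosion CPM (y), both on log scales, 1 point per gene coloured by family. The solid line marks equal CPM and the dashed line the ratio of the median gene (log2 1.04). Prpf38b, Ddx3x, Srsf11, Srsf12 and Ddx60 lie far above the dashed line, and Sf3b5, Sf3b6 and Ddx24 lie below the solid line.

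Within single classes the members' share was higher in explosion throughout, by 1.5-fold (1.47 to 1.52) in monocyte-like cells to 3.17-fold (3.11 to 3.23) in secretory-like cells. Much of this was shared with other genes. The median gene had a log2 ratio of 0.47 in monocyte-like and 1.42 in secretory-like cells, and the median member 0.62 and 1.63. The members' summed level was lowest in control secretory-like cells, at 3421 CPM, and highest in explosion NK-like cells, at 22924 CPM. Within each library the immune classes T-, B- and NK-like lay above the epithelial classes. In control, T-, B- and NK-like cells had 13009, 14124 and 13382 CPM and ciliated-like cells 6716. In explosion the same 3 classes had 21396, 21505 and 22924 CPM and ciliated-like cells 15003.

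Counts of higher members were near the background in most classes, and counts of lower members were below it in all 8. In macrophage-like cells 32 of 97 measured members were at least 2-fold higher (background 32.5%) and 0 lower (7.73%), in T-like cells 29 of 94 and 0 (35.6% and 7.52%), and in monocyte-like cells 20 of 97 and 1 (27.8% and 8.74%). Mesothelial-like cells had 31 of 90 higher and 0 lower (30.3% and 12.6%), B-like cells 22 of 74 and 1 (28.5% and 9.87%), and NK-like cells 26 of 78 and 0 (25.9% and 8.70%). The share was further above the background in secretory-like cells, with 72 of 81 higher and 0 lower (63.0% and 3.67%), and in ciliated-like cells, with 38 of 60 and 0 (47.7% and 10.1%). With doublets kept and cells clustered anew, the higher count was 36 in B-like cells (48.0%, background 33.0%) and 43 in NK-like cells (54.4%, background 32.1%), further above the background than with doublets removed. With the median gene of each class at a ratio of 1, 5 to 9 members per class were higher and 3 to 5 lower, so the larger counts depend on scaling to total UMIs. Under that scaling the members' share ran from 5.15% in macrophage-like to 15% in ciliated-like cells for higher and from 3.09% to 6.76% for lower, against 10.7% to 15.1% and 16.8% to 24.6% of all genes. The members' median exceeded that of all genes in each class, from 0.74 against 0.68 in T-like cells to 0.82 against 0.49 in mesothelial-like cells on the log2 scale.

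**Figure D2:**
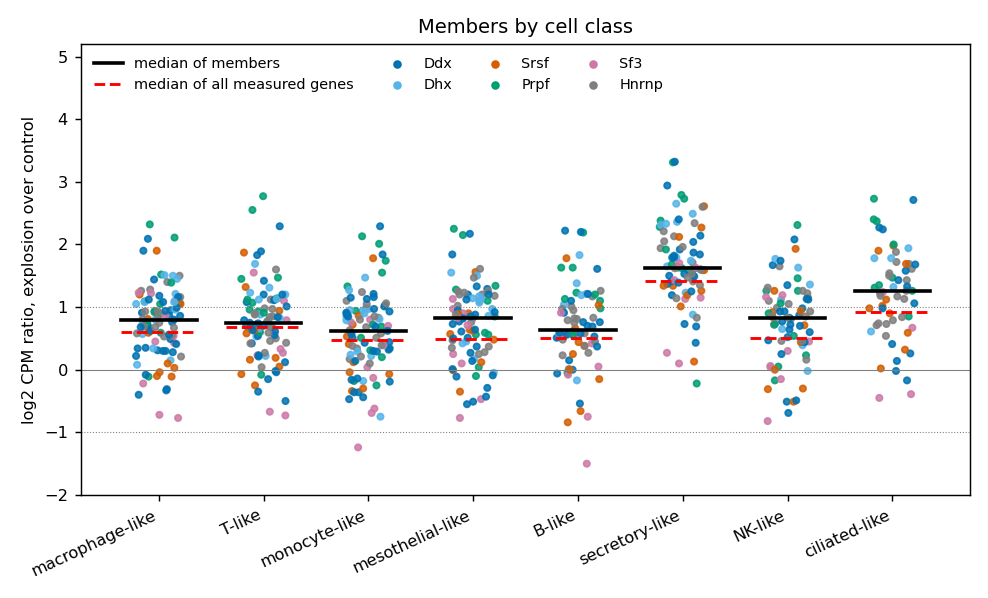
Log2 CPM ratio, explosion over control, of every measured member (points, coloured by family) in the 8 compared classes. Black lines are the medians of the members, red dashed lines the medians of all measured genes, and dotted lines mark 2-fold. The black line is above the red one in each class, by 0.06 in T-like to 0.34 in mesothelial-like cells, and a few members stand well apart at both ends.

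Measures of depth and RNA quality also differed between the libraries in every compared class. Median UMIs per cell were 5781 in control and 1173.5 in explosion macrophage-like cells, 11357 and 1396 in secretory-like cells, and 1660 and 577 in NK-like cells. Ribosomal RNA precursor Rn45s was 33.5-fold higher over all kept cells and 16.1- to 30.5-fold higher in single classes. The mitochondrial ribosomal RNAs mt-Rnr1 and mt-Rnr2 were 5.6- and 4.96-fold higher over all kept cells. In single classes mt-Rnr1 ran from 2.35-fold in B-like to 7.21-fold in secretory-like cells, and mt-Rnr2 from 1.87-fold in mesothelial-like to 5.50-fold in secretory-like cells. The part of depth and RNA quality in the results was not tested. Whether reads in introns were counted, and whether strand was used, are not given in the sources used here.

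Single members were compared over classes. Measured in all 8 classes were 57 members, of which 46 had a ratio above 1 in every class (80.7%, against 49.0% of the 2876 genes measured in all 8). No member was below 1 in every class, against 18.8% of those genes. Prpf38b, Ddx3x, Srsf11, Prpf18, Ddx21 and Hnrnph1 were at least 2-fold higher in all 8 classes, which is 10.5% of the members against 10.2% of genes. Relative to the median gene of each class, 25 members (43.9%) were above it in every class and 9 (15.8%) below it, against 26.2% and 37.1% of genes. Prpf38b, Srsf11 and Ddx3x were at least 2-fold above the median gene in every class, 5.26% against 1.70%.

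**Figure D3:**
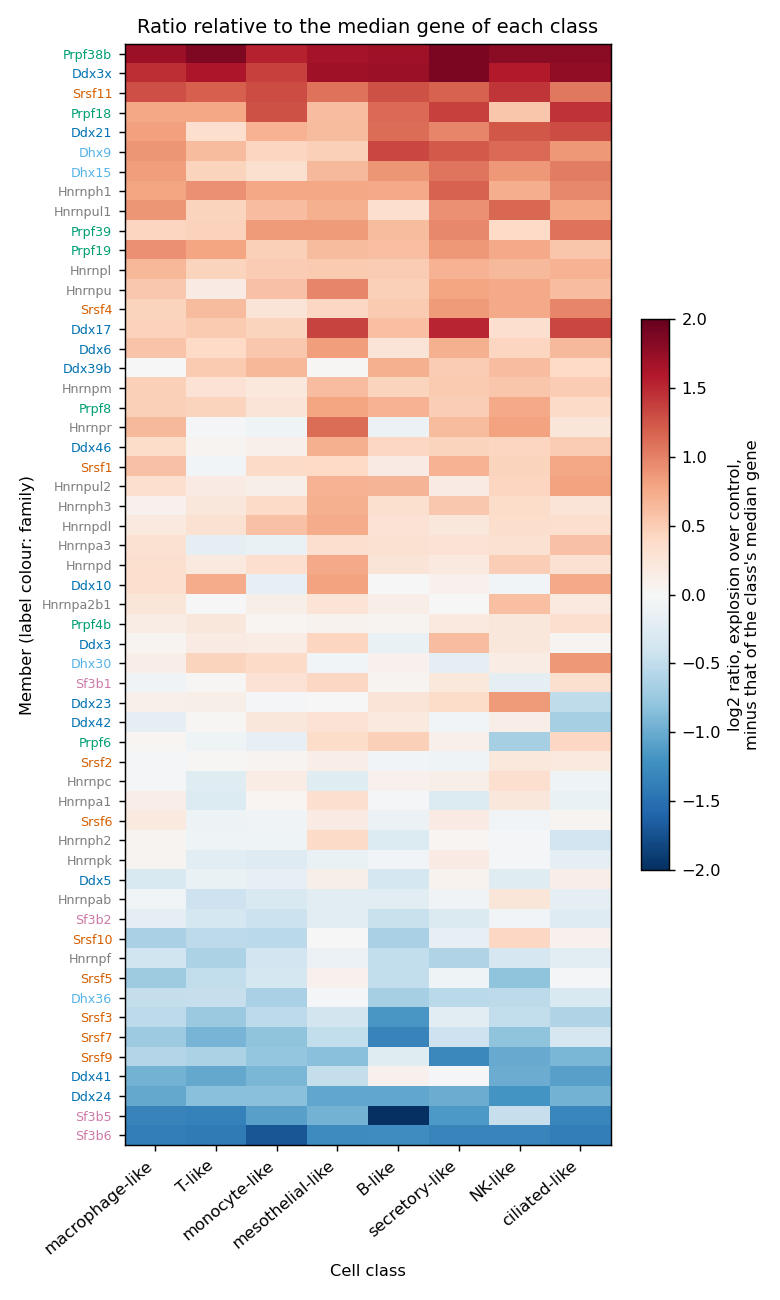
Log2 ratio of 56 of the 57 members measured in all 8 classes (rows, ordered by median) minus that of the median gene of the class (columns); red is above and blue below the median gene, and label colours give the family. Prpf38b, Ddx3x and Srsf11 form the red rows at the top in all 8 classes, and Sf3b6 and Sf3b5 the blue rows at the bottom.

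Among the DEAD-box helicases, Ddx3x, an X-linked helicase that helps ribosomes start on structured mRNAs, stood out. Its level over all kept cells was 45.1 CPM in control and 283 CPM in explosion, 6.29-fold higher (5.99 to 6.60). In macrophage-like cells it was 53.7 against 229 CPM and in secretory-like cells 25.7 against 256 CPM, and the ratio ran from 3.59-fold in monocyte-like to 9.97-fold in secretory-like cells. Ddx3x, the gene listed as Ddx3 and Ddx3y are related, but their sequences were not compared here, so reads shared between them are uncertain. Ddx3 had 39.2 and 110 CPM, and Ddx3x UMIs per Ddx3 UMI went from 1.15 (1.10 to 1.20) in control to 2.58 (2.39 to 2.79) in explosion, with intervals apart in all 8 classes. Ddx21, a nucleolar helicase of ribosomal RNA processing, was 38.0 CPM in control and 125 in explosion, 3.29-fold higher (3.07 to 3.52). Its class ratios ran from 2.01 in T-like to 5.27 in secretory-like cells, and relative to the median gene from 0.33 to 1.31 on the log2 scale.

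Other DEAD-box members spread widely around the median gene. Ddx5, a coregulator of transcription and splicing, had 796 CPM in control and 1415 in explosion, 1.78-fold higher (1.74 to 1.81) but -0.21 on the log2 scale with the median gene at 1. Its relative Ddx17 ranged widely over classes, from 1.78-fold (1.37 to 2.31) in NK-like to 7.67-fold (6.63 to 8.85) in secretory-like cells. Ddx24 was 135 CPM in control and 122 in explosion, a ratio of 0.906 (0.85 to 0.966), and it was below the median gene in every class. Ddx41, a helicase mutated in inherited myeloid neoplasms, had 41.7 and 52.9 CPM, a log2 ratio of 0.34 that was -0.70 with the median gene at 1. Ddx18, which acts in ribosome assembly, had 17.5 and 19.7 CPM, a log2 ratio of 0.17 that was likewise -0.87.

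The median of the DEAH-box family exceeded that of all genes in all 8 classes, by 0.32 to 0.86 on the log2 scale. Dhx9, an RNA helicase that unwinds double-stranded RNA, was 33.2 CPM in control and 126 in explosion, 3.79-fold higher (3.54 to 4.06). It ran from 1.87-fold in monocyte-like to 6.27-fold in secretory-like cells. Dhx15, which takes the spliceosome apart after splicing, was 34.9 and 122 CPM, 3.50-fold higher (3.27 to 3.75), and passed 2-fold in 7 of 8 classes. Dhx57 was 6.98 and 24.7 CPM, 3.54-fold higher (3.02 to 4.13), in few UMIs. Dhx16, which remodels the spliceosome before the first step, was 9.42 and 19.8 CPM. Dhx36, which resolves G-quadruplexes, and Dhx29, which binds the small ribosomal subunit, were lowest: 78.0 and 129 CPM (log2 0.73) and 42.4 and 50.4 CPM (log2 0.25). Both turned to below 1, -0.31 and -0.79, with the median gene at 1.

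Prpf38b and Prpf38a, related proteins of the Prpf family, had unlike ratios. Prpf38b was 69.4 CPM in control and 599 in explosion, 8.63-fold higher (8.33 to 8.93), while Prpf38a, a factor of spliceosome activation, had 25.7 and 32 CPM, a ratio of 1.25 (1.10 to 1.41). Prpf38b was higher in each class, from 223 against 898 CPM in monocyte-like cells (4.03-fold) to 33.2 against 329 CPM in secretory-like cells (9.91-fold). Prpf38a lay between 0.844 and 1.45 in the 7 classes where it was measured. A ratio of 2 genes within a library needs no scaling: Prpf38b UMIs per Prpf38a UMI were 2.70 (2.59 to 2.82) in control and 18.7 (16.5 to 21.2) in explosion. The intervals were apart in all 8 classes. Outside ciliated-like cells, where explosion held 1 Prpf38a UMI, the change ran from 3.42-fold in NK-like to 11.6-fold in secretory-like cells. These pairs were chosen after their values were seen.

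Counted per cell instead of per total UMIs, Prpf38b was nearly level between the libraries. It had 0.432 UMIs per control cell and 0.422 per explosion cell, while all UMIs per cell were 6219 and 706. In NK-like cells it had 0.317 and 0.559 UMIs per cell, in macrophage-like cells 0.471 and 0.458, and in ciliated-like cells 0.822 and 0.521. Sf3b6, at the other end, had 0.453 and 0.0370 UMIs per cell. Sf3b6, which had the lowest CPM ratio over all kept cells, thus stood at 0.0816 of its control value per cell, and Prpf38b at 0.979.

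Over all kept cells other Prpf members had smaller ratios in the same direction. Prpf18, a factor of the second splicing step, was 25.4 and 114 CPM, 4.51-fold higher (4.19 to 4.86), with class ratios from 2.08 in NK-like to 6.90 in secretory-like cells. Prpf40b, a U1-associated protein, was 8.24 and 36.1 CPM, 4.38-fold higher (3.84 to 4.99). It passed 2-fold in all 6 classes where it was measured. Its median log2 ratio over these was 2.33, against 2.31 for Prpf38b over 8 classes. The splicing kinase Prpf4b was 194 and 504 CPM, 2.60-fold higher (2.52 to 2.69). Its class log2 ratios ran from 0.51 in monocyte-like to 1.62 in secretory-like cells. The U4/U6 protein Prpf4 was 17.2 and 30.8 CPM, 1.79-fold higher but -0.20 on the log2 scale with the median gene at 1.

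The SF3 proteins had unlike ratios. Sf3b1, the large scaffold that clasps the branch point, was 168 CPM in control and 416 in explosion, 2.48-fold higher (2.39 to 2.57). Within classes Sf3b1 passed 2-fold in 2 of 8, with a median log2 ratio of 0.73. Relative to the median gene of each class it ran from -0.20 to 0.41 on the log2 scale. Sf3b3, another large subunit, was 21.4 and 62.9 CPM, 2.94-fold higher (2.67 to 3.23). Its class log2 ratios ran from 0.70 in monocyte-like to 1.70 in secretory-like cells. The small subunits Sf3b6 and Sf3b5 were lower. Sf3b6, which contacts the branch-point adenosine, was 72.9 and 52.4 CPM, 1.39-fold lower (1.26 to 1.53), and Sf3b5 was 62.2 and 53.3 CPM, 1.17-fold lower (1.06 to 1.29). Sf3b6 was lower in 7 of 8 classes, from 108 against 45.9 CPM in monocyte-like cells (2.36-fold lower) to 63.3 against 46.3 in ciliated-like cells (1.37-fold lower, with an interval that includes 1), and was 29.7 against 31.9 CPM in secretory-like cells. Sf3b5 was lower in 6 classes and was 2.84-fold lower (1.37 to 6.80) in B-like cells, on 81 and 8 UMIs. Sf3b1 UMIs per Sf3b6 UMI were 2.30 (2.24 to 2.36) in control and 7.93 (7.18 to 8.78) in explosion, with intervals apart in all 8 classes and changes of 2.17- to 4.00-fold. Sf3b3 UMIs per Sf3b5 UMI were 0.343 and 1.18, with intervals apart in 7 classes.

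The remaining SF3 members lay between these. Sf3b4 and Sf3a2, which contact the RNA near the branch point, were 9.23 and 21.5 CPM and 14 and 31.8 CPM, 2.33- and 2.27-fold higher. Within classes each passed 2-fold in 1, of 4 measured for Sf3b4 and 5 for Sf3a2. Sf3b2 was 227 and 344 CPM and Sf3a3 33.7 and 43.0 CPM, with log2 ratios of 0.60 and 0.35 that were -0.44 and -0.69 with the median gene at 1. Sf3b2 was below the median gene in all 8 classes, by -0.45 to -0.05 on the log2 scale. As a family, SF3 members had a median above that of all genes in 1 of 8 classes.

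SR proteins had unlike ratios as well. Srsf11 was 72.1 CPM in control and 386 in explosion, 5.35-fold higher (5.14 to 5.57), from 2.96-fold in mesothelial-like (101 against 298 CPM) to 6.09-fold in secretory-like cells (37.4 against 228 CPM). Srsf1, the founding member of the family, was 54.6 and 150 CPM, 2.75-fold higher (2.58 to 2.92). Srsf4 was 37.4 and 102 CPM, 2.73-fold higher (2.54 to 2.94). Within classes Srsf1 passed 2-fold in 3 of 8 and Srsf4 in 6. Srsf3 and Srsf7, which also link splicing to mRNA export, were 123 and 183 CPM and 106 and 168 CPM. Their log2 ratios of 0.57 and 0.66 were -0.47 and -0.38 with the median gene at 1, and both were below the median gene in every class. In B-like cells both were lower in explosion, Srsf3 at 287 and 182 CPM and Srsf7 at 479 and 268 CPM. Srsf9 had 38.7 and 35.8 CPM, a ratio of 0.924 (0.819 to 1.04). Srsf2, at 187 and 417 CPM, was 2.23-fold higher and Srsf5, at 283 and 446 CPM, 1.58-fold higher. Within classes Srsf2 passed 2-fold in 2 of 8 and Srsf5 in 1. The family's median exceeded that of all genes in 3 of 8 classes.

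All 19 hnRNP genes had ratios above 1 over all kept cells, and 15 passed 2-fold, where 79.9% and 51.6% of all genes did. Within classes 3 of 19 passed 2-fold in T-like (background 35.6%), 4 of 19 in monocyte-like (27.8%) and 3 of 18 in B-like cells (28.5%). Macrophage-like cells had 6 of 19 (32.5%), NK-like 7 of 18 (25.9%) and mesothelial-like 10 of 19 (30.3%). Secretory-like cells had 18 of 19 (63.0%) and ciliated-like 12 of 18 (47.7%). Hnrnph1, which binds runs of G, was 49.1 and 200 CPM, 4.08-fold higher (3.86 to 4.30), and passed 2-fold in all 8 classes, from 2.33 in NK-like to 6.08 in secretory-like cells. Hnrnpul1 was 62.0 and 197 CPM, 3.18-fold higher (3.02 to 3.36), and Hnrnpr 45.0 and 119 CPM, 2.64-fold higher (2.47 to 2.83). They passed 2-fold in 7 and 5 of 8 classes. Hnrnpa2b1, a carrier and splicing regulator of many transcripts, was 490.5 and 1122 CPM, 2.29-fold higher (2.24 to 2.34), but passed 2-fold in 3 of 8 classes. Hnrnpf, a relative of Hnrnph1, was 228 and 333 CPM, Hnrnpab 239.8 and 377 CPM and Hnrnpk 112 and 202 CPM. Their log2 ratios of 0.54, 0.65 and 0.86 were -0.50, -0.39 and -0.18 with the median gene at 1. The family's median exceeded that of all genes in all 8 classes, by 0.09 to 0.53.

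Genes of the same machinery outside these families were taken from lists, which were chosen with earlier results of these data known. Their counts are to be read against the 51.6% of all genes that were at least 2-fold higher and the 5.98% that were lower. The 2 lists of snRNP proteins had the lowest medians of these lists apart from the nuclear-retained RNAs. Of 16 measured U1, U2 and Sm core proteins 3 were at least 2-fold higher and 2 lower over all kept cells, with a median log2 ratio of 0.14: Snrpd2 was 238 and 103 CPM, 2.31-fold lower, and Snrpg 46.0 and 21.1 CPM, 2.18-fold lower. Snrnp70, the large U1 protein, was 148 and 531 CPM, 3.58-fold higher. Of 17 tri-snRNP and LSm proteins 5 were higher and 1 lower (median -0.05), with Txnl4a at 111 and 36.5 CPM, 3.05-fold lower, Sart3 at 8.99 and 34.7 CPM, 3.86-fold higher, and the large U5 helicase Snrnp200 at 46.6 and 124 CPM, 2.66-fold higher. Both lists lay below the median gene in all 8 classes, with lowest differences of -0.96 and -1.46 on the log2 scale.

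The lists of SR-related proteins, other splicing regulators and other helicases lay above the median gene in all 8 classes. Of 31 SR-related proteins, kinases and speckle proteins 23 were higher and 0 lower (median 1.53), led by Nktr at 79.7 and 513 CPM, 6.45-fold higher. Of 25 other RNA-binding splicing regulators 21 were higher and 0 lower (median 1.6), with Rbfox2 at 7.50 and 44.2 CPM and Sfpq at 72.2 and 376 CPM, 5.89- and 5.21-fold higher. Of 15 other RNA helicases 13 were higher and 0 lower (median 1.71), with Helz2 at 4.25 and 36.0 CPM, 8.47-fold higher, and the translation helicase Eif4a1 at 391 and 395 CPM. Factors of the Prpf19-associated complex and the splicing steps had 6 of 17 higher and 0 lower (median 0.66) and lay below the median gene in all 8 classes. Exon junction and decay factors had 8 of 16 higher and 0 lower (median 0.92), from Magoh at 71.0 and 54.4 CPM to the kinase Smg1 at 33.0 and 218 CPM. Of 6 nuclear-retained RNAs listed only Snhg11 was found, at 11.6 and 8.16 CPM.

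**Figure D4:**
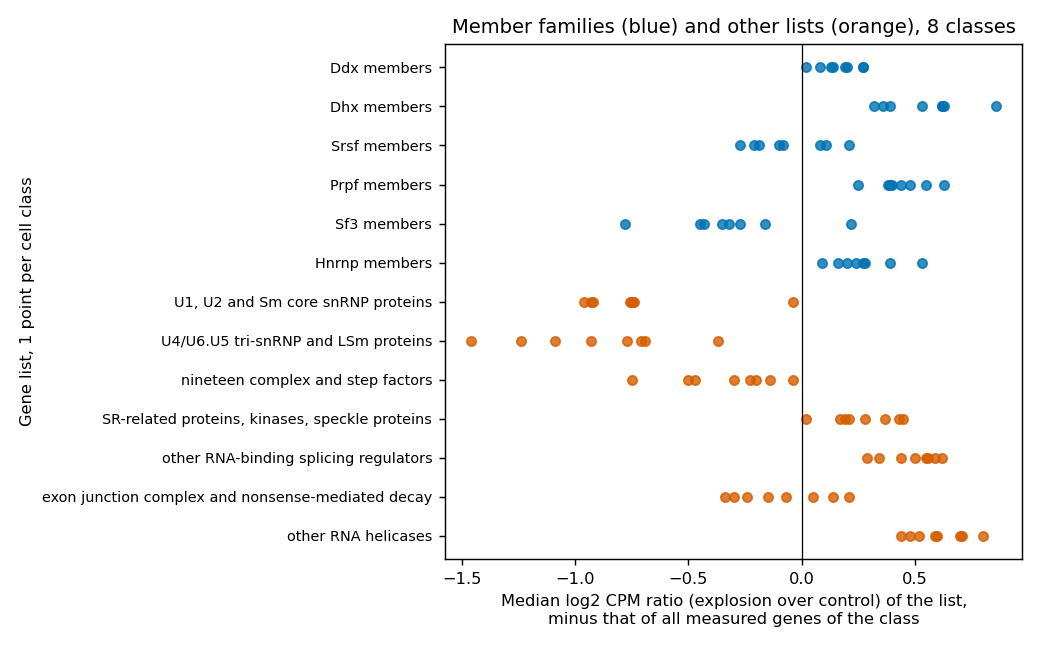
Median log2 ratio of each member family (blue) and each other list (orange), minus the median of all measured genes, 1 point for each of the 8 classes. The Dhx, Prpf and Hnrnp families and the other RNA helicases lie right of 0 in all 8 classes, while the 2 snRNP lists lie left of 0 in all 8.

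A few members had very uneven levels over cell classes. Srsf12, a small SR protein that can counteract its relatives, had 89.6 CPM (71.8 to 110) in control NK-like cells, 32.6 (26.1 to 40.3) in T-like and 0.358 in macrophage-like cells. In explosion it had 161 CPM (120 to 211) in NK-like, 62.8 (46.1 to 83.5) in T-like and 1.74 in macrophage-like cells. NK-like cells therefore had the highest level in each library, with an interval apart from that of T-like cells, and macrophage-like cells were near 0. Its ratio over all kept cells was 8.34-fold (6.76 to 10.3), but 1.80-fold (1.25 to 2.56) within NK-like and 1.92-fold (1.32 to 2.77) within T-like cells. T-like cells were 7.05% of control and 13.6% of explosion cells, and macrophage-like cells 46.7% and 16.2%.

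The helicases that sense or respond to viral RNA were uneven as well. Ddx60, induced by interferon, had 2.17 and 19.6 CPM over all kept cells, 9.03-fold higher (7.38 to 11), on 260 and 163 UMIs. Among classes it was highest in NK-like cells, with 21.4 and 68.1 CPM (3.18-fold, 1.67 to 6.09). The intervals overlap those of B-like cells, with 14 and 64.2 CPM (4.59-fold, 2.16 to 9.96). Monocyte-like cells had 7.04 and 34.3 CPM, 4.87-fold higher (2.65 to 9.66). It was at least 2-fold higher in all 5 classes where it was measured, and each of these ratios was below the one over all kept cells, in which the shares of the classes also differed between libraries. Ddx58, which encodes the sensor RIG-I, was 14 and 28.1 CPM, 2.01-fold higher (1.75 to 2.31) but -0.03 on the log2 scale with the median gene at 1. It was highest in NK-like cells, at 37.7 and 74.2 CPM. Dhx58, which encodes the RIG-I relative LGP2, was 8.80 and 23.0 CPM, 2.62-fold higher (2.23 to 3.06), and was highest in monocyte-like cells, at 23.8 and 45.9 CPM, with macrophage-like cells at 15.9 and 30.9 CPM. Within those 2 classes its ratios were 1.93 (1.32 to 2.85) and 1.94 (1.5 to 2.47).

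**Figure D5:**
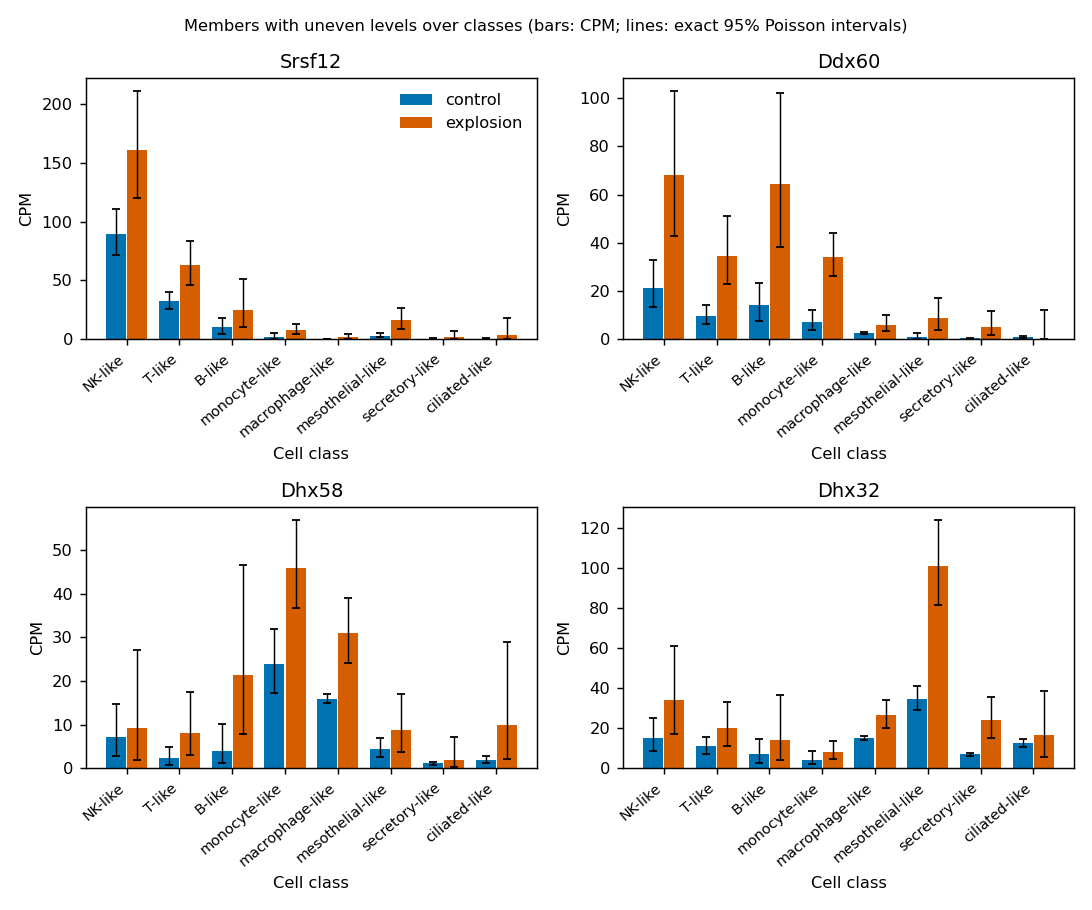
CPM of Srsf12, Ddx60, Dhx58 and Dhx32 in the 8 compared classes, control in blue and explosion in orange, with exact 95% Poisson intervals that cover counting error only. Srsf12 and Ddx60 are highest in NK-like, Dhx58 in monocyte-like and Dhx32 in mesothelial-like cells in both libraries; the wide bars come from few UMIs.

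The highest class of further members was as follows. Dhx32 was highest in mesothelial-like cells, with 34.5 CPM (28.9 to 40.9) in control and 101 (81.4 to 124) in explosion, against a median over classes of 10.9 and 15.4 CPM. Ddx25, known as a germ-cell helicase, was highest in B-like cells, at 35.0 CPM (24.4 to 48.7) and 28.5 (12.3 to 56.3), but it overlaps Pus3 in the annotation. Dhx34, a factor of nonsense-mediated decay, was highest in control monocyte-like cells at 29.8 CPM (22.4 to 38.7), and there had 17.7 CPM (12.1 to 25) in explosion. Dhx33 was highest in ciliated-like cells, at 5.85 CPM (4.53 to 7.43) and 23.1 (9.30 to 47.7), the latter on 7 UMIs. Ddx27 had 269 CPM (200 to 354) in the explosion dendritic-like class of 220 cells, more than 127 in NK-like cells; control had too few dendritic-like cells (42) for a level. Prpf18 was highest in B-like cells in both libraries (85.0 and 264 CPM), and Ddx21 in T-like cells in control (114 CPM) and NK-like cells in explosion (278 CPM), whose intervals overlap that of T-like cells.

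Some of the named members overlap other genes, so their UMIs could include those of a neighbour: Ddx60 overlaps Palldl1, Prpf40b overlaps Mcrs1 and Fam186b, Sf3b6 overlaps Fkbp1b, Dhx32 overlaps Bccip and Fank1, and Ddx5 overlaps Cep95. Levels are not compared between genes, since 3' counts were not set against transcript length.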

How the data were processed

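Droplet single-cell libraries of lung from 1 control and 1 explosion group were deposited as raw UMI count matrices; cellranger 7.1.0 appears per the file headers. Among tools the submitters' processing notes list Cell Ranger 6.1.1 and bcl2fastq 2.20, and as builds rn6 and mRatBN7.2, with no role for either. The symbol rule, the other lists and the comparisons were chosen with earlier results of these data known.

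Kept barcodes had 200 or more genes and no more than 25% mitochondrial UMIs, and doublets called by Scrublet (1786 control, 8.47%; 631 explosion, 5.07%) were removed. Both libraries were clustered together without integration (scanpy 1.11.5; 2000 variable genes, 30 components, 15 neighbours, Leiden resolution 1) and clusters named from 215 of 221 listed markers, by a procedure rebuilt here after clusters were seen. A name needed 3 markers at least 2-fold above other clusters and in 5% of cells. Clusters led by genes of another class or by cell-cycle genes were also left unnamed. Of 36 clusters 1 stayed unnamed, which had 9 macrophage markers but was led by cell-cycle genes. Control cells summed to 120017879 UMIs and explosion cells to 8333286.

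UMIs were summed per class and library. Ratios carry exact conditional intervals of 2 Poisson counts (scipy 1.17.1), and levels exact Poisson intervals. The ratio intervals were tried on simulated Poisson counts, which cannot show variation between cells, animals or libraries. No test was run: each group is 1 library.

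Genes named in the text were taken from, per family, the 3 highest and 3 lowest median ratios over classes and the 2 most abundant in control, the 6 most class-restricted per library, the 5 widest ranges, the antiviral helicases, and 2 highest and 2 lowest of each other list; other examples (Ddx3, Snrnp200) and the gene pairs were chosen after their values were seen. Neighbours and synonyms come from RefSeq tables of GRCr8, for names only. Other scalings, filters, depths, weights, doublet treatment and clustering were tried. One member is counted but not reported here by name.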

Additional observations from a re-analysis of the deposited data

Results flagged for a closer look

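For 6 members the change had opposite signs in different classes, with intervals that excluded 1 on both sides. They were 6.12% of the 98 members measured in 2 or more classes, near the 6.56% of all 10629 such genes. On the log2 scale Ddx24 was -0.69 in NK-like and 0.43 in secretory-like cells, Ddx41 was -0.44 in monocyte-like and 1.39 in secretory-like cells, and Sf3a3 was -0.69 in monocyte-like and 1.15 in secretory-like cells. Srsf3 was -0.66 in B-like and 1.19 in secretory-like cells, Srsf7 was -0.84 in B-like and 1.01 in secretory-like cells, and Srsf5 was -0.30 in NK-like and 1.34 in secretory-like cells. The difference between classes was not tested. The classes given are those with the lowest and highest ratio, and secretory-like cells had the highest each time. For Ddx24, Ddx41, Sf3a3 and Srsf3 this was the only class with an interval above 1. Srsf7 had 2 such classes and Srsf5 had 4. The median gene stood at 1.42 in secretory-like cells, against 0.50 in B-like and NK-like and 0.47 in monocyte-like cells. Relative to the median gene of each class, Ddx24, Srsf3 and Srsf7 were below it in all 8.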

How the results depend on the processing

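No paired analysis was possible because each group has 1 library and no result comes from a test. Scaling to the median gene left 20.1% of all genes at least 2-fold higher and 21.0% lower over all kept cells. In single classes these shares were 10.7% to 15.1% and 16.8% to 24.6%. With the median gene scaled to a ratio of 1, the counts of members at least 2-fold higher and lower were 8 and 4 over all kept cells, 5 and 3 in macrophage-like, 7 and 4 in T-like, 7 and 4 in monocyte-like, 8 and 3 in mesothelial-like, 8 and 4 in NK-like, 9 and 4 in secretory-like, 9 and 3 in ciliated-like and 8 and 5 in B-like cells; the members' median and summed log2 ratios were both 0.15. Under this scaling log2 ratios over all kept cells changed sign for the Ddx median (-0.03), Ddx41 (-0.70), Ddx18 (-0.87), Ddx5 (-0.21), Dhx29 (-0.79), Dhx36 (-0.31), Srsf3 (-0.47), Srsf7 (-0.38), Srsf5 (-0.38), Prpf4 (-0.20), Prpf38a (-0.72), Sf3a3 (-0.69), Sf3b2 (-0.44), Hnrnpk (-0.18), Hnrnpab (-0.39), Hnrnpf (-0.50), Ddx25 (-0.86), Ddx58 (-0.03) and Ddx27 (-0.11). With totals that leave out Scgb1a1, ribosomal protein, hemoglobin and mitochondrial genes and Rn45s, the higher counts were 39 over all kept cells, 12 in T-like, 13 in monocyte-like, 9 in B-like, 37 in secretory-like cells, 22 in ciliated-like cells and 17 in NK-like cells, and the lower counts 2 in T-like, 3 in B-like and 1 in NK-like cells; the median was 0.80 and the summed log2 ratio 0.81, and Ddx41 (-0.04), Ddx18 (-0.22), Dhx29 (-0.13), Prpf38a (-0.07), Sf3a3 (-0.03) and Ddx25 (-0.20) changed sign. Under those totals 37.9% of members were higher over all kept cells, against 38.2% of all genes. In T-, monocyte- and B-like cells the shares were 12.8%, 13.4% and 12.2%, against 20.9%, 22.8% and 18.0%. In secretory-, ciliated- and NK-like cells they were 45.7%, 36.7% and 21.8%, against 40.7%, 30.8% and 17.5%. Lower shares in T-, B- and NK-like cells were 2.13%, 4.05% and 1.28%, against 12.3%, 14.6% and 11.9%. With no filter the lower counts were 1 in T-like, 3 in monocyte-like, 1 in mesothelial-like, 1 in NK-like and 1 in ciliated-like cells. The higher counts were 34 in B-like and 66 in ciliated-like cells. Without the filter 5.88% to 11.3% of all genes were lower in those 5 classes, against 0.952% to 2.88% of members. In B-like and ciliated-like cells 32.7% and 62.9% of members were higher, against 39.7% and 61.9% of all genes. Under a minimum of 20 UMIs in each library the lower count in B-like cells was 0, against 6.79% of all genes. With cells thinned to 500 UMIs the higher counts were 36 over all kept cells, 47 in secretory-like, 14 in ciliated-like and 6 in B-like cells, the median and summed log2 ratios were both 0.81, and Ddx41 (-0.06), Ddx18 (-0.29) and Srsf7 (-0.13) changed sign. After thinning 36.0% of members were higher over all kept cells, against 37.1% of all genes. In secretory-, ciliated- and B-like cells 85.5%, 35.9% and 30.0% were, against 56.6%, 27.2% and 18.7%. Among cells with at least 500 UMIs the summed log2 ratio was 1.12 and Srsf9 was at 0.02. The lower counts were 3 in monocyte-like and 1 in NK-like cells (3.41% and 1.41%, against 9.45% and 8.95% of all genes). The higher count was 9 in B-like cells (29.0%, against 24.9%). With every cell weighing the same, the higher counts were 45 over all kept cells and 24 in ciliated-like cells. These were 43.7% and 34.8% of members, against 39.5% and 28.8% of all genes. The median was 0.91 and the summed log2 ratio 0.93, and Ddx18 (-0.20) and Ddx25 (-0.11) changed sign. With doublets kept the summed log2 ratio was 1.20. The higher counts were 36 in B-like and 43 in NK-like cells (48.0% and 54.4%, against 33.0% and 32.1% of all genes). With at most 10% mitochondrial UMIs, or at Leiden resolution 2, each count stayed within 1.5 times its value in the report. In T-like cells, for example, the higher count was 28 and 31 (29.8% and 33.0%, against 35.3% and 36.6% of all genes).

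Prpf38b, Ddx3x and Srsf11 stayed above 1 under all 10 alternatives, at log2 2.07 to 3.11, 1.61 to 2.66 and 1.38 to 2.42, and Sf3b6 and Sf3b5 below 1, at -1.52 to -0.47 and -1.27 to -0.21. For the changes above the cause was not tested. One library a group, unequal depth, unknown intron counting and mostly library-specific clusters limit every ratio.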
